A study of Sus scrofa with 48 samples.

Results

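Genes of natural killer (NK) and other cytotoxic lymphocytes were followed in pig blood across 2 lines divergent in residual feed intake (RFI) and 2 diets. The set held 10 genes, namely GNLY, PRF1, GZMA, GZMB, GZMH, NKG7, KLRK1, KLRB1, NCR1 and TBX21. A spot of the array was counted as a member when its gene name equalled 1 of these symbols and the spot was among the 37113 retained by the authors. By that rule 8 of the 10 genes had a spot, with 14 spots in all, out of 26924 gene names on the retained spots. GNLY and KLRB1 were not found under their symbols. They were measured by 1 spot each that carries an older synonym or a gene number in the scanner files and that the RefSeq gene table pairs with GNLY and KLRB1. They are reported beside the others, and counts are given for the 8 genes and for all 10.

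Cytotoxic lymphocytes, which include NK cells and cytotoxic T cells, kill infected or altered cells by releasing granules onto them. Perforin opens the membrane of the target, and granzymes, a family of serine proteases, enter and start cell death. Activating and inhibitory receptors on the lymphocyte surface decide whether granules are released, and T-box transcription factors such as T-bet switch on much of this program during lymphocyte maturation. In pig blood these cells include NK cells, cytotoxic T cells and part of the gamma delta T cells.

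The blood came from 48 purebred French Large White castrated males killed at 132 days of age after a trial that began in the growing period. In a divergent selection experiment the low RFI line eats less than its growth and maintenance would predict and is the more feed-efficient, and the high RFI line eats more. Within each line 12 pigs received a low-fat, low-fiber (LF) diet of cereals and soybean meal, and 12 received a high-fat, high-fiber (HF) diet in which part of the cereals was replaced by wheat straw and vegetable oils at equal protein and metabolizable energy. The 4 groups of 12 were therefore low RFI LF, low RFI HF, high RFI LF and high RFI HF, with 1 Cy3-labelled array per pig, so that every replicate was a separate animal.

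The arrays lay on 6 slides of 8, and each slide held 2 pigs of each group. On each array the retained spots were at a median of 5.91 to 16.0 times their local background, and 40771 to 46727 of the 60306 non-control spots were well above background per array. Values of high RFI HF replicate 1 were rebuilt from the scanner output of that pig, because its deposited entries repeat 1 value after the first 24. All values below are log2 intensities with the median of the retained spots of each array at 0, and a gene with several spots is given as their mean unless a spot is named. Differences are low minus high RFI, or HF minus LF, on the same log2 scale. The arrays read RNA of whole blood, so that fewer cells of a type and less RNA per cell cannot be told apart.

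Members differed in how far their spots stood above background. The GNLY spot had a median of 3877 times its local background, and the GZMB, GZMH, NKG7 and KLRK1 spots had 67.7 to 211 times. The weakest were NCR1, with 2.48 times, GZMA, with 2.53 and 4.20 times, and PRF1, with 4.70 times. All member spots were well above background on the 48 arrays except spot 1 of GZMA, which was so on 43. These figures describe the signal of each spot and do not compare transcript levels between genes.

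Among the member spots, those of granzyme genes varied most between pigs of the same group. The within-group SD was 0.85, 0.66 and 0.60 for the 3 GZMB spots, 0.71 and 0.74 for GZMA, and 0.59 and 0.69 for GZMH, compared with a median of 0.26 over all retained spots. Spot 2 of TBX21 and the KLRB1 spot came close, with 0.58 and 0.56, and a further retained spot of TBX21 had 0.70. GNLY, which encodes the membrane-damaging granule peptide NK-lysin, had 0.25. From the lowest to the highest of the 48 pigs the signal spanned 11.1-fold for GZMH and 6.87-fold for GZMB, but 1.90-fold for GNLY.

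GZMH, the gene of a granule serine protease of the granzyme family, was the only one of the 10 genes called between lines. It was underexpressed in low RFI pigs, by 0.73 on the log2 scale. The call rested in part on 1 slide, as given with the within-slide values. The array reads GZMH with 2 probes that lie apart in the transcript, starting at base 805 for spot 1 and at base 292 for spot 2 of the annotated transcript. Their sequences are shown because both carry the line difference, and because granzyme genes resemble each other.
GZMH spot 1: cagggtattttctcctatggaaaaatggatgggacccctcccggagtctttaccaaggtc
GZMH spot 2: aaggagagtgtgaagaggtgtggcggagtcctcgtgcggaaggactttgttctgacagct
The longest run of identical bases that a GZMH probe shares with a probe of GZMA or GZMB was 6 bases over the 12 pairs. Probes were compared with probes only, not with the transcripts of GZMA or GZMB. Whether a GZMH probe also binds those transcripts was therefore not tested. In the RefSeq gene table GZMH is the neighbour of GZMB on chromosome 7.

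The lowest, median and highest GZMH values of the 24 low RFI pigs were 1.64, 2.95 and 4.05. In the 24 high RFI pigs they were 2.57, 3.57 and 5.11. The lines overlapped, but 21 of the 24 low RFI pigs lay below the high RFI median, 9 lay below the lowest high RFI pig, and 2 high RFI pigs lay above the highest low RFI pig. Low RFI pigs averaged 2.79 ± 0.70 (SD, n = 24), and high RFI pigs averaged 3.51 ± 0.56 (SD, n = 24). The difference of -0.73 (SE 0.18) had an adjusted P-value of 0.0116 by limma, with P-values BH-corrected over all genes. Spot 1 gave -0.69 (SE 0.17, adjusted P-value 0.00891) and spot 2 gave -0.76 (SE 0.19, adjusted P-value 0.0157).

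The GZMH difference pointed the same way in both diets and was wider in LF, although the difference between diets was not called. Low RFI LF pigs ranged from 1.88 to 3.59 with a median of 2.87, compared with 2.85 to 5.11 and a median of 3.59 in high RFI LF. Of the 12 low RFI LF pigs, 11 lay below the high RFI LF median. Low RFI HF pigs ranged from 1.64 to 4.05 with a median of 2.95, and high RFI HF pigs from 2.57 to 4.04 with a median of 3.46, so that the HF groups overlapped more widely. The line difference was -0.98 (SE 0.25, P-value 0.000312, adjusted P-value 0.0591) in LF and -0.48 (SE 0.25, P-value 0.0625, adjusted P-value 0.656) in HF. The interaction was 0.50 (SE 0.35, adjusted P-value 0.892).

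Slide 6 contributed most to the GZMH difference. Its 4 low RFI pigs had GZMH values of 1.64, 2.34, 1.92 and 1.88, and its 4 high RFI pigs had 3.58, 4.04, 3.82 and 5.11, without overlap. Within slides the line difference of GZMH was below 0 on 5 of the 6, at -0.50, -0.63, -0.52, -0.62 and -2.19 on slides 2 to 6, and was 0.09 on slide 1. With the 8 pigs of slide 6 left out the difference was -0.43 (SE 0.17, P-value 0.0141) and the adjusted P-value rose to 0.261, so that the call was lost. It was kept in the fits that left out any other slide or any 1 pig.

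**Figure D1:**
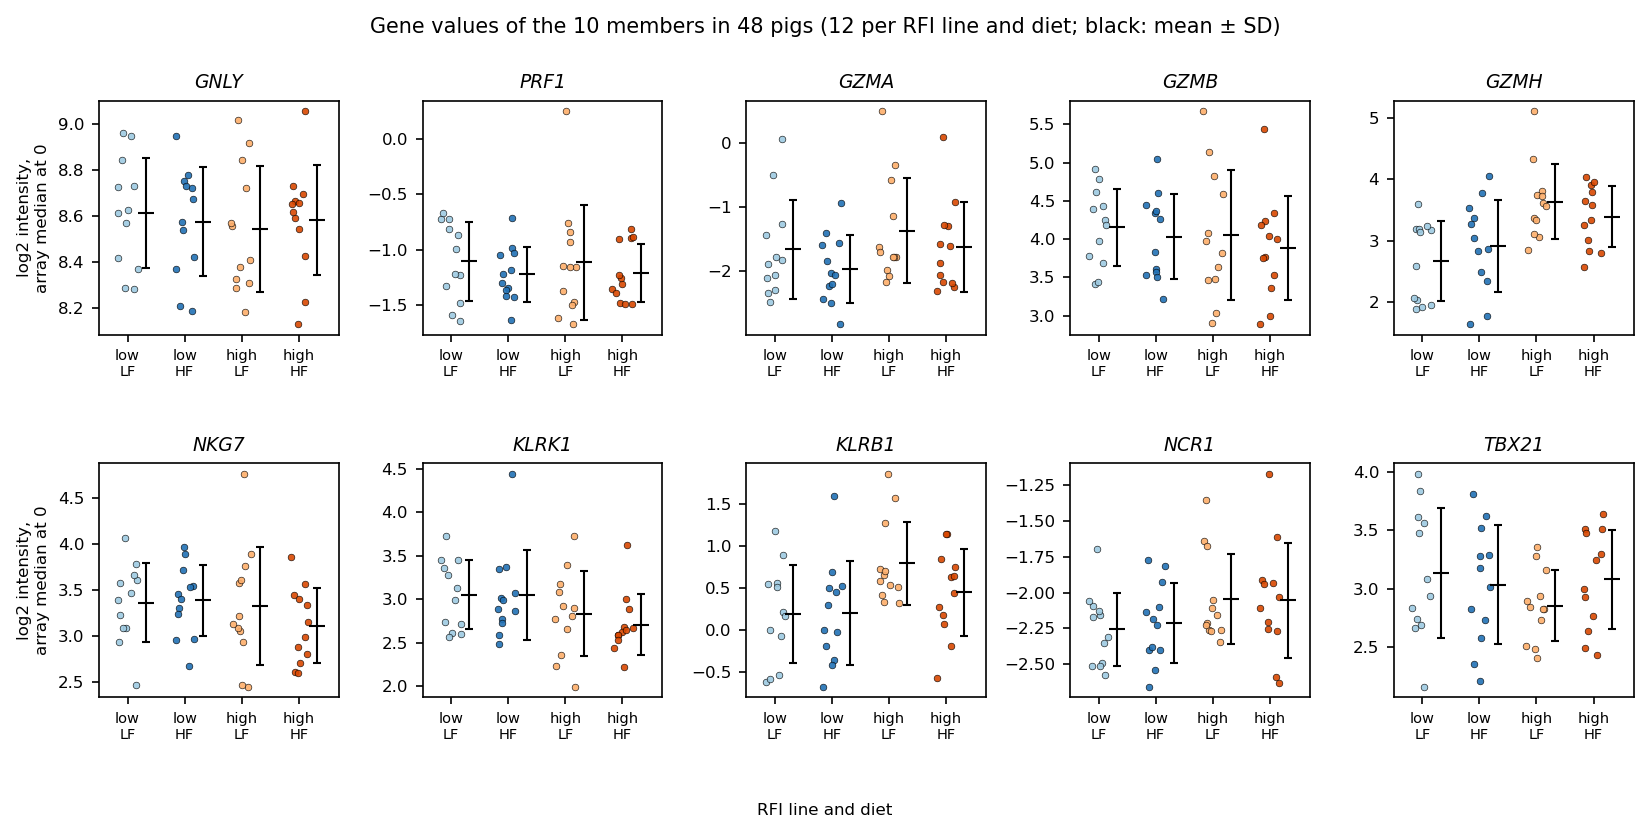
Log2 intensity of the 10 member genes in the 4 groups (array median at 0, mean of the spots of a gene), with 1 point per pig and the group mean as a bar with its SD (n = 12). GZMH sits lower in both low RFI groups, while the means of GNLY lie between 8.54 and 8.61 in all 4.

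Over all member spots, 2 of 14 were called between lines at an adjusted P-value under 0.05, both of them GZMH and both lower in low RFI, beside 2.77% of all retained spots. At the criterion of the study's methods, an uncorrected P-value under 0.01 with a fold change (FC) above 1.1, 3 of 14 spots passed, 2 lower and 1 higher, beside 5.78% of all spots. With GNLY and KLRB1 the counts were 2 of 16 and 4 of 16, the KLRB1 spot being the further one and lower. The higher spot was spot 2 of KLRK1, at the edge of the criterion with a P-value of 0.00985. It no longer passed under the study's analysis of variance without shrinkage (P-value 0.0123), which left 2 spots, with slide as a block (0.0105) or with the deposited column (0.0192), and with slide as a block spot 1 of GZMB passed instead (P-value 0.00776). By gene, 1 of 8 was called at the adjusted threshold, and 1 of all 10, beside 2.73% of all genes. At the study's criterion 1 of 8 passed, and 2 of 10 with KLRB1, beside 5.56%. At an uncorrected P-value under 0.05, 3 of 8 genes passed, and 4 of 10, beside 11.5%. The members had no common direction, since 5 of the 10 were higher and 5 lower in low RFI pigs, with a median difference of 0.0146 compared with 0.0166 over all genes.

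**Figure D2:**
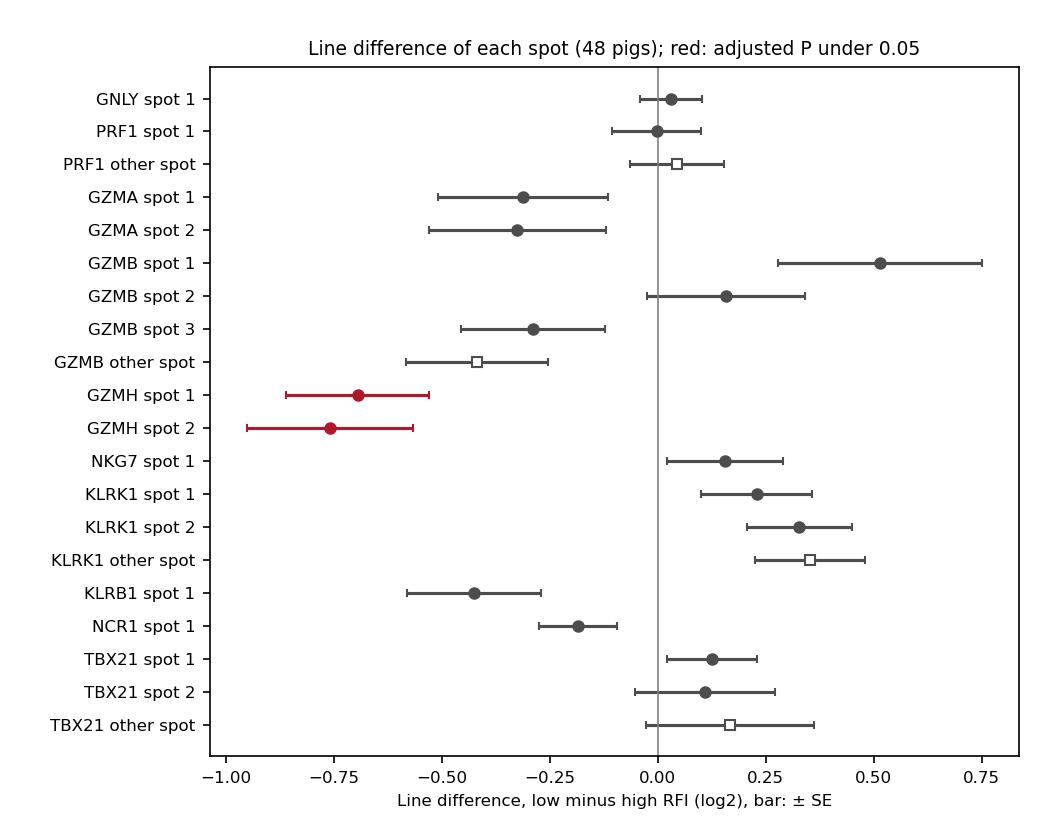
Line difference (low minus high RFI, log2) of every spot of the 10 members, with its SE. Further retained spots tied to a member by accession or by shared bases are drawn as open squares. Both GZMH spots lie well below 0. The GZMB spots lie on both sides of 0, from 0.52 at spot 1 to -0.29 at spot 3, and the other spot is at -0.42.

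GZMB encodes granzyme B, the protease that cleaves after aspartate and activates caspases in the target cell. Its gene mean was not called between lines, at 0.13 (SE 0.18, adjusted P-value 0.952), but its probes did not give the same answer. The array holds 3 spots named GZMB and 1 further retained spot, without that name, whose probe differs from that of spot 3 by 1 base. This other spot is tied to GZMB by that sequence alone, not by name or accession. Which gene it reads was not tested. Spots 1 and 2 read the end of the transcript and overlap over 44 bases, of which 17 follow the stop codon. The stretch is printed because the probes differ there, with the differing bases in capitals.
GZMB spot 1: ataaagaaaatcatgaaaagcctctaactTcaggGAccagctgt
GZMB spot 2: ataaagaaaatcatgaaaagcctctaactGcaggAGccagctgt
GZMB spot 3: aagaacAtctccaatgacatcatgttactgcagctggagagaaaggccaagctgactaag
GZMB other spot: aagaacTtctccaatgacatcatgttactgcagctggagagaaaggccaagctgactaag
Counted from the 5′ end of the sequence printed first in each pair, the changes are T30G, G35A and A36G from spot 1 to spot 2, and A7T from spot 3 to the other spot.

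At GZMB spot 1 the lowest, median and highest values were 3.37, 4.66 and 5.48 in low RFI pigs and 2.41, 3.90 and 6.07 in high RFI pigs. Low RFI pigs were higher in the middle of the range, with 19 of 24 above the high RFI median, but 3 high RFI pigs exceeded all of them. At spot 3 the values were 2.19, 3.13 and 4.25 in low RFI and 2.56, 3.30 and 5.03 in high RFI. Here 13 of 24 low RFI pigs lay below the high RFI median, and 5 lay below the lowest high RFI pig.

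Taken spot by spot, the GZMB line difference went from higher to lower in low RFI pigs. It was 0.52 (SE 0.24, adjusted P-value 0.335) at spot 1 and 0.16 (P-value 0.392) at spot 2, then -0.29 (P-value 0.0896) at spot 3 and -0.42 (SE 0.16, adjusted P-value 0.21) at the other spot. None of these was called by limma with BH correction over all spots.

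The difference between GZMB spots within the same pig put more low RFI pigs above the high RFI median than any GZMB spot alone. Spot 1 minus spot 3 was larger in low RFI pigs by 0.80 (SE 0.17), with 23 of 24 low RFI pigs above the high RFI median. The permutation test of line labels within diet (100000 draws, 2-sided) gave a P-value of 3e-05, or 0.0004 after BH correction over the 15 pairs of spots tested among the members. Spot 1 minus spot 2 was larger by 0.36 (SE 0.08, permutation adjusted P-value 0.0004), and spot 1 minus the other spot by 0.93 (SE 0.20, permutation adjusted P-value 0.0004). All 3 differences were above 0 on 6 of 6 slides, and the line difference of spot 1 minus spot 3 ranged from 0.31 to 1.40 over the slides.

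Even spot 3 of GZMB and the other spot, whose probes differ by 1 base, did not give the same line difference. Spot 3 minus the other spot was larger in low RFI pigs by 0.13 (SE 0.05, permutation adjusted P-value 0.0201), with 22 of 24 low RFI pigs above the high RFI median and 6 of 6 slides above 0. Over the 48 pigs, with group means removed, spots 1 and 2 of GZMB had r = 0.96 and rho = 0.95, and spot 3 and the other spot had r = 0.96 and rho = 0.96 (permutation adjusted P-value 1.64e-05 for each). Spots 1 and 3 had r = 0.73 and rho = 0.72 (permutation adjusted P-value 1.64e-05), and spot 1 and the other spot had r = 0.56 and rho = 0.56 (permutation adjusted P-value 4.5e-05 for r and 6e-05 for rho). Without the 2 pigs farthest from the median the 4 values of r were 0.96, 0.96, 0.65 and 0.46. These P-values were adjusted over 18 correlations of the GZMB spots and the other spot. These pairs of spots were compared after their values had been seen. The cause of the difference between probes was not tested.

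Members with several spots did not all disagree in this way. Besides GZMB, 2 of the 3 pairs of KLRK1 spots differed, by values given with that gene. The GZMH spots gave nearly the same line difference, with 0.06 between them (permutation adjusted P-value 0.467), and the GZMA spots differed by 0.01 (permutation adjusted P-value 0.864). For TBX21 none of the 3 pairs of spots passed, and neither did the pair of PRF1 spots, at -0.05 (permutation adjusted P-value 0.526).

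Among the other effectors no gene was called between lines. GZMA, the tryptase-like granzyme, had a lowest, median and highest value of -2.83, -1.96 and 0.06 in low RFI pigs and -2.31, -1.74 and 0.49 in high RFI pigs. The lines overlapped over nearly the whole range, and the difference was -0.32 (SE 0.20, adjusted P-value 0.654). It was uneven between slides, from -1.06 on slide 3 to 0.23 on slide 2. Both GZMA probes stood near the background, and the RefSeq table holds 2 neighbouring genes with this symbol, and which of them the probes read was not tested.

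PRF1, which encodes perforin, was as close to equal between lines as any member. Its values were -1.64, -1.21 and -0.67 (lowest, median and highest) in low RFI and -1.67, -1.24 and 0.25 in high RFI pigs, with a difference of -0.0026 (SE 0.10, adjusted P-value 0.999). A further retained spot of PRF1 gave 0.04 (SE 0.11). GNLY was 8.19, 8.62 and 8.96 in low RFI and 8.13, 8.58 and 9.05 in high RFI pigs, with a difference of 0.03 (SE 0.07, adjusted P-value 0.975). NKG7, a protein of cytotoxic granule membranes, was 2.47, 3.43 and 4.06 in low RFI and 2.45, 3.14 and 4.77 in high RFI pigs, and its difference was 0.16 (SE 0.13, adjusted P-value 0.837).

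Between lines none of the 3 receptors passed the adjusted threshold. KLRK1, which encodes the activating receptor NKG2D, was higher on average in low RFI pigs, while KLRB1, a C-type lectin-like receptor, and NCR1, which encodes the activating receptor NKp46, were lower on average there. KLRK1 was read by 2 spots whose probes overlap end to end over 14 bases, printed in capitals.
KLRK1 spot 1: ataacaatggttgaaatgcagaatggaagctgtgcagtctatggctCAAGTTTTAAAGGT
KLRK1 spot 2: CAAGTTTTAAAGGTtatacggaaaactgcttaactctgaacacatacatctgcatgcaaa
A further retained spot with the same accession overlaps the probe of spot 2 over 48 bases.

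KLRK1 was 2.48, 2.99 and 4.44 (lowest, median and highest) in low RFI pigs and 1.996, 2.67 and 3.73 in high RFI pigs. The lines overlapped, with 19 of 24 low RFI pigs above the high RFI median and 5 high RFI pigs below the lowest low RFI pig. The difference was 0.28 (SE 0.12, P-value 0.0298, adjusted P-value 0.325), and it was above 0 on 5 of 6 slides. Slide 1 had the widest difference of KLRK1, 0.93, against -0.19 to 0.33 on the others, and with slide 1 left out the value was 0.15 (SE 0.12, adjusted P-value 0.876). By spot it was 0.23 at spot 1, 0.33 (P-value 0.00985) at spot 2 and 0.35 (P-value 0.00777, adjusted P-value 0.147) at the further spot, where 22 of 24 low RFI pigs exceeded the high RFI median. Spot 1 gave a smaller line difference than spot 2, with -0.10 between them (SE 0.04, permutation adjusted P-value 0.0291), and than the further spot, with -0.12 (SE 0.04, permutation adjusted P-value 0.0043).

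KLRB1 was -0.68, 0.19 and 1.596 in low RFI and -0.58, 0.61 and 1.85 in high RFI pigs. Of the low RFI pigs 20 of 24 lay below the high RFI median. The difference was -0.43 (SE 0.16, P-value 0.00863, adjusted P-value 0.161), below 0 on 5 of 6 slides and 0.41 on slide 1. With slide 1 left out it was -0.59, with an adjusted P-value of 0.0485, so that KLRB1 then passed. With slide 3 left out it was -0.22 (P-value 0.17), and by analysis of variance without shrinkage the P-value of KLRB1 was 0.0111, outside the criterion. In LF the difference was -0.60 (SE 0.22, P-value 0.00836, adjusted P-value 0.34) and in HF -0.25 (SE 0.22, adjusted P-value 0.963).

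NCR1 was -2.66, -2.21 and -1.70 in low RFI and -2.63, -2.13 and -1.17 in high RFI pigs, close to the background in both. Its difference was -0.18 (SE 0.09, P-value 0.0478, adjusted P-value 0.422), with 16 of 24 low RFI pigs below the high RFI median and 5 of 6 slides below 0. TBX21, which encodes the transcription factor T-bet, was 2.16, 3.05 and 3.99 in low RFI and 2.41, 2.91 and 3.64 in high RFI pigs. The difference of TBX21 was 0.12 (SE 0.13, adjusted P-value 0.908), above 0 on 3 of 6 slides.

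Within each diet the line comparison called no member gene, beside 0.717% of all genes in HF and 0.457% in LF. Spot 1 of GZMH passed in LF, at -0.93 (SE 0.23, adjusted P-value 0.0442).

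No member gene had a diet effect at an adjusted P-value under 0.05 by limma, beside 0.0% of all genes, or at the study's criterion, beside 0.208%, or at an uncorrected P-value under 0.05, beside 1.61%. The lowest P-value was 0.168, for GZMA, with -2.83, -1.96 and 0.10 (lowest, median and highest) in the 24 HF pigs and -2.49, -1.78 and 0.49 in the 24 LF pigs. That difference, HF minus LF, was -0.28 (SE 0.20). GZMH, the member that differed between lines, had a diet difference of 0.0031 (SE 0.18), and GZMB had -0.15 (SE 0.18). The interaction of line and diet likewise called no member, beside 0.0% of all genes at the adjusted threshold, 0.223% at the criterion of the methods and 2.25% at an uncorrected P-value under 0.05. The SE of these interactions, up to 0.40, leaves small ones undetectable with 12 pigs per group.

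Most members varied together from pig to pig inside groups. For each of the 45 pairs of genes the values of the 48 pigs were correlated after group means were removed, with permutation P-values adjusted over the 45. Of these, 36 were positive, and 33 passed 0.05 by Pearson's r, 27 positive and 6 negative. By Spearman's rho 29 passed. With slide means also removed, all 45 pairs kept their sign.

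PRF1, the 3 granzymes, NKG7, KLRK1 and KLRB1 formed 21 pairs that were all positive, with r from 0.29 to 0.88 and a median of 0.59, and 20 of them passed. This grouping describes the same correlations and is not a separate test. It leaves out TBX21, GNLY (r = -0.05 with GZMA) and NCR1 (r = 0.04 with GZMA). The closest pair was GZMB and NKG7, with r = 0.88 and rho = 0.86 (permutation adjusted P-value 5.63e-05 for r and 6.43e-05 for rho, both from a P-value of 1e-05, the smallest the draws allow). Without the 2 pigs farthest from the median r was 0.84, with slide means removed it was 0.86, and within single slides it lay between 0.27 and 0.95. PRF1 and NKG7 followed with r = 0.73 and rho = 0.64 (permutation adjusted P-value 5.63e-05 for r and 6.43e-05 for rho), and r was 0.62 without the 2 extreme pigs. GZMH, the only member called between lines, correlated with GZMB, taken as the mean of its 3 spots, at r = 0.49 and rho = 0.46 (permutation adjusted P-value 0.000879 for r and 0.00237 for rho).

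The correlation of GZMH with GZMB depended on the probe of GZMB. With spot 1 it was r = 0.27 and rho = 0.29 (permutation adjusted P-value 0.0608 for r and 0.0454 for rho), and with spot 2 it was r = 0.39 and rho = 0.37 (permutation adjusted P-value 0.00668 for r and 0.0113 for rho). With spot 3 it was r = 0.82 and rho = 0.81, and with the other spot r = 0.92 and rho = 0.91 (permutation adjusted P-value 1.64e-05 for each). Without the 2 pigs farthest from the median r was 0.17, 0.29, 0.81 and 0.90, and with slide means removed it was 0.42, 0.50, 0.88 and 0.93, in the same order. At GZMB spots 1, 2 and 3 and the other spot, r with NKG7 lay between 0.80 and 0.86, and r with TBX21 between -0.52 and -0.45. The differences between these correlations were not tested.

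TBX21 correlated negatively with 6 of the 9 other genes past the threshold by r. Of these, PRF1 did not pass by rank, at rho = -0.29 (permutation adjusted P-value 0.0732), and its r was -0.22 without the 2 extreme pigs. With KLRB1 TBX21 was at -0.27 and did not pass. With NCR1 TBX21 had no settled sign, at r = -0.04 and at 0.04 without the 2 extreme pigs. The furthest were GZMA, with r = -0.53 and rho = -0.44 (permutation adjusted P-value 0.000338 for r and 0.00376 for rho), and GZMB, with r = -0.51 and rho = -0.51 (permutation adjusted P-value 0.0005 for r and 0.00075 for rho). Without the 2 extreme pigs these were -0.45 and -0.46. With GNLY the correlation was positive, with r = 0.52 and rho = 0.54 (permutation adjusted P-value 0.000397 for r and 0.0006 for rho), and r was 0.58 without the 2 extreme pigs.

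A technical measure, how far the median intensity of an array stood over its local background, was also correlated with each of the 10 genes. TBX21 was lower on brighter arrays, at r = -0.54 and rho = -0.56 (permutation adjusted P-value 0.0008 for r and 0.0007 for rho, over 10 tests), as was GNLY, at r = -0.34 (permutation adjusted P-value 0.0467). GZMB was higher on them, at r = 0.44 and rho = 0.52 (permutation adjusted P-value 0.00755 for r and 0.0013 for rho), as was NKG7, at r = 0.37 (permutation adjusted P-value 0.0296). Without the 2 extreme pigs r was -0.54 for TBX21, -0.30 for GNLY, 0.50 for GZMB and 0.47 for NKG7. For GNLY the rank correlation did not pass, at rho = -0.31 (permutation adjusted P-value 0.066). The other 6 genes did not pass by r, GZMH among them at 0.25 (permutation adjusted P-value 0.13). The part of array brightness in the correlations between members was not tested.

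**Figure D3:**
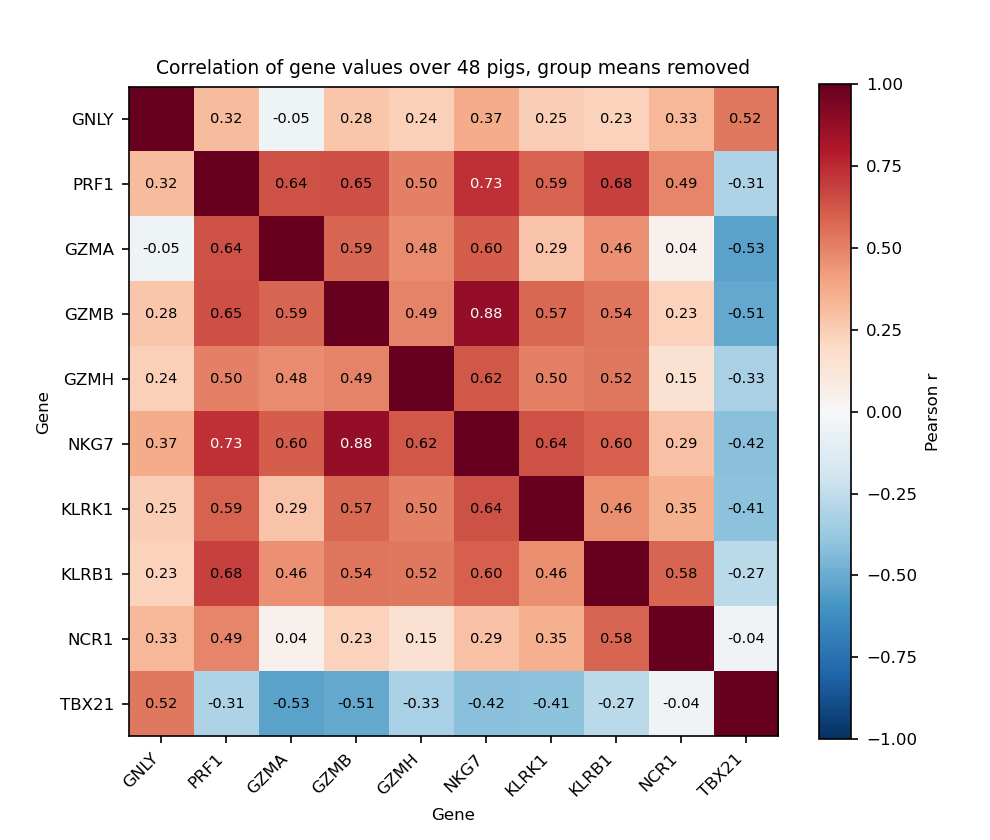
Pearson's r between the 10 member genes over 48 pigs, with group means removed, as a coloured matrix. PRF1, GZMA, GZMB, GZMH, NKG7, KLRK1 and KLRB1 form a positive block, from 0.29 to 0.88, and TBX21 is below 0 with every member but GNLY, although NCR1 lies near 0 at -0.04.

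The genes with the most similar profile over pigs were listed for each member among 9703 named genes, by r over the 48 pigs with group means removed and as a description only. For GZMB they were SERPINB9 (0.89), whose product inhibits granzyme B, CST7 (0.88), which encodes the granule cathepsin inhibitor cystatin F, and FBXW7 (0.85). NKG7 also had SERPINB9 first (0.94), then RDX (0.93) and TESC (0.88). PRF1 was nearest to FASLG (0.83), the death ligand, then CD2 (0.79) and BATF (0.78), and GZMA to LAG3 (0.81), SPC24 (0.76) and XPO1 (0.75). KLRK1 was nearest to GPR56 (0.74), SNTB2 (0.73) and CCL4 (0.71), KLRB1 to SPRY2 (0.74), BATF (0.73) and CCND3 (0.70), and NCR1 to XCL1 (0.59), SPRY2 (0.54) and NEDD9 (0.53).

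GZMH had less close neighbours by name, CBX6 (0.70), GLO1 (0.70) and ARHGAP31 (0.68). A retained spot without a gene name followed GZMH more closely, at r = 0.97, and its line difference was -0.74 (SE 0.17, adjusted P-value 0.00782). TBX21 had POM121 (0.96), C17ORF53 (0.95) and ASB12 (0.95), and genes near GNLY included HSD17B13 (0.67) and ZBTB7A (0.67).

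Other genes of the same pathway, in lists set out by role, were then read from the line comparison, in which 2.73% of all genes were called. Of the other receptors of cytotoxic cells, 9 of 18 were measured and 2 were called, both higher in low RFI pigs. These were KLRC1, a subunit of the NKG2 receptors, at 0.40 (SE 0.11, adjusted P-value 0.0267), and SLAMF6, a receptor that binds its own kind on neighbouring cells, at 0.31 (SE 0.06, adjusted P-value 0.00101). The median of the 9 was 0.16. FCGR3A, the IgG receptor of NK cells, was read by 4 spots that carry the name FCGR3B and that the RefSeq table pairs with it. Its value was -0.08 (SE 0.09, adjusted P-value 0.899).

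Of the signalling adaptors and kinases, 11 of 14 were measured, and LCK and PLCG1 were called, both higher in low RFI, at 0.21 (SE 0.06, adjusted P-value 0.0408) and 0.23 (SE 0.07, adjusted P-value 0.0406). HCST, which encodes the DAP10 adaptor that carries the signal of the KLRK1 receptor, was at 0.34 (SE 0.11, adjusted P-value 0.075) beside the 0.28 of KLRK1. SYK was at -0.52 (SE 0.17, adjusted P-value 0.107). Among the transcription factors 10 of 13 were measured and 1 was called. EOMES, the T-box factor related to TBX21, rose by 0.50 in low RFI pigs (SE 0.09, adjusted P-value 0.000354), while TBX21 was at 0.12.

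Of the other granule and death ligand effectors, 10 of 11 were measured. CTSC, the protease that activates granzymes by removing their leading dipeptide, was called lower in low RFI pigs, at -0.27 (SE 0.06, adjusted P-value 0.00294). The granzymes outside the member set, GZMK and GZMM, were at 0.37 (SE 0.17, adjusted P-value 0.354) and 0.22 (SE 0.10, adjusted P-value 0.342), opposite in sign to GZMH and GZMA. In the exocytosis machinery 9 of 9 genes were measured, and STX11, a syntaxin that granule release needs, was called lower, at -0.25 (SE 0.07, adjusted P-value 0.0372).

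None of the 14 measured cytokine and chemokine genes, of 18 listed, was called, and the lowest P-value was that of XCL1, a chemokine of activated NK and T cells, at 0.48 (SE 0.15, adjusted P-value 0.075). Of the ligands that target cells show to these receptors 3 of 8 were measured, and ULBP1, a ligand of the KLRK1 receptor, was called lower at -0.29 (SE 0.08, adjusted P-value 0.0285). ULBP1 and SYK stand in gene groups that the study drew from these pigs. No gene of the 7 lists was called for diet or for the interaction.

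**Figure D4:**
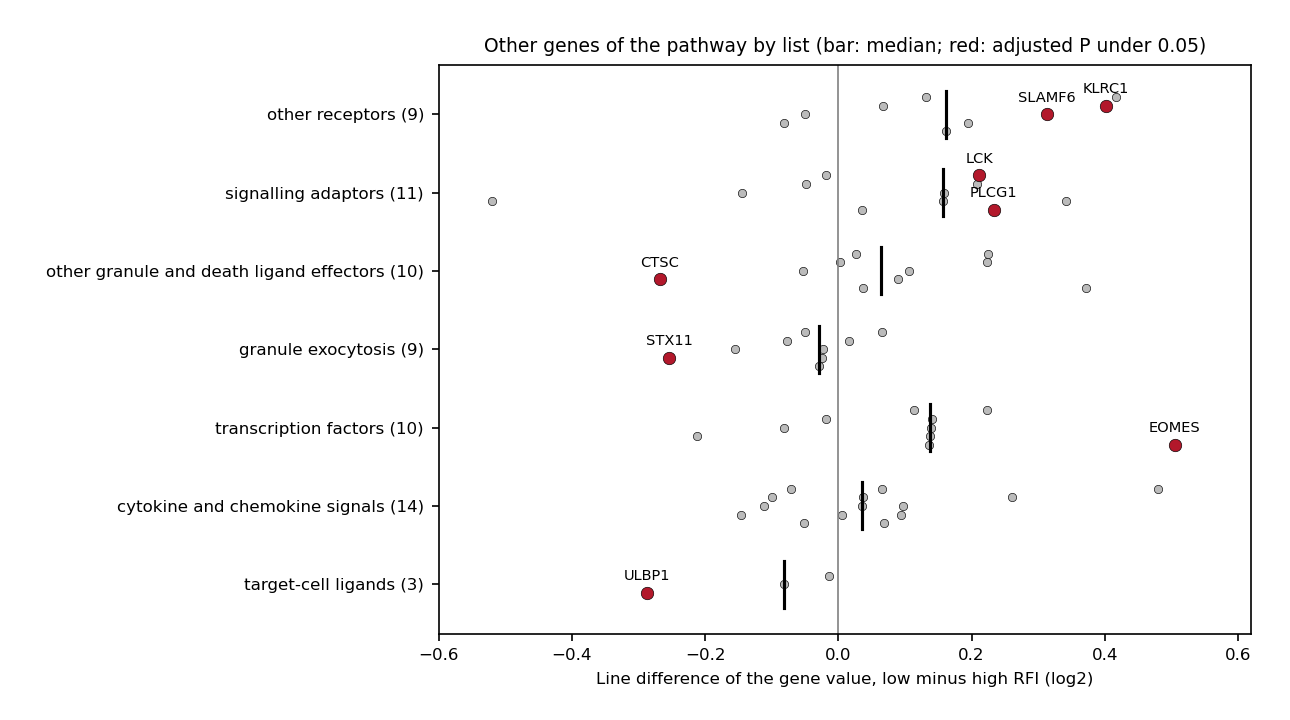
Line difference (low minus high RFI, log2) of each measured gene in the 7 pathway lists, with called genes filled. The receptors, adaptors and transcription factors have medians of 0.16, 0.16 and 0.14, and the exocytosis genes one of -0.03.

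Marker genes of the cell types expected in whole blood were measured in every group, and some of them also differed between the lines. The counts are to be read against the 2.73% of all genes called between lines. Of the T cell markers 10 of 13 were measured and 1 was called, LCK, and the median of the 10 was 0.15. The summed linear level of the 10 ranged from 44.0 to 66.3 in low RFI LF, 43.8 to 66.1 in low RFI HF, 39.3 to 72.6 in high RFI LF and 40.3 to 58.6 in high RFI HF, where 1 is the array median, with medians of 53.8, 54.96, 50.9 and 46.7 in that order. Of the B cell markers 7 of 8 were measured and 4 were called lower, among them MS4A1 at -0.36 (adjusted P-value 0.00128), CD40 at -0.33 (adjusted P-value 0.0138) and BLNK at -0.23 (adjusted P-value 0.0252). Their summed level was 26.5 to 52.8 in low RFI LF, 30.0 to 64.8 in low RFI HF, 43.7 to 54.8 in high RFI LF and 39.1 to 55.4 in high RFI HF, and its medians were 38.5, 39.8, 49.4 and 45.1. Both low RFI medians thus lay below both high RFI medians, although the ranges overlapped.

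Among myeloid markers CD14 of the 8 monocyte genes was called lower in low RFI pigs, at -0.47 (adjusted P-value 0.0418), and CXCR2 of the 6 measured neutrophil genes at -0.42 (adjusted P-value 0.0441). The summed level of the neutrophil genes had medians of 146 in low RFI LF (range 90.7 to 383), 148 in low RFI HF (68.1 to 344), 162 in high RFI LF (89.0 to 314) and 236 in high RFI HF (130 to 503). That of the monocyte genes had medians of 33.4 (20.3 to 54.3), 26.9 (17.3 to 42.3), 31.8 (19.3 to 51.8) and 30.5 (21.7 to 51.1) in the same order. The neutrophil median was thus higher in high RFI HF than in the other 3 groups, with ranges that overlapped. Of the 8 measured erythroid genes 1 was called, SLC4A1, higher in low RFI pigs at 0.26 (adjusted P-value 0.0472). None of the 6 platelet genes was called. The medians of the summed levels, in the same order of groups, were 1494, 1444, 1398 and 1548 for the erythroid genes and 65.9, 66.1, 63.1 and 67.4 for the platelet genes. The B cell genes named here, CD14 and CXCR2 also stand in gene groups that the study drew from these pigs. An array gives no value of 0, so that no marker is listed as absent. The part of cell proportions in the GZMH difference was not tested.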

How the data were processed

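Whole blood RNA of 48 pigs was measured on 1-colour Agilent arrays. The scanner files that the authors deposited hold the intensity of each spot. Per the study's methods, spots were filtered on background, diameter, saturation and uniformity, and the authors deposited log2 intensities centred on the array median for 37113 retained spots (R 3.0.2 per the submitters' processing notes). On 47 arrays the deposited log2 values equalled log2 of the median pixel intensity minus its array median, within 1e-06, so that no local background was subtracted and low signals are compressed. The remaining column was rebuilt in the same way.

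Groups came from the labels. Line, diet and their interaction were fitted over all retained spots, and over 26924 gene names as the mean of their spots, with limma 3.58.1 in R 4.3.3 (lmFit, eBayes, BH correction over the whole table). Calls used an adjusted P-value under 0.05, and the methods' criterion a P-value under 0.01 with FC above 1.1. Correlations and pairs of spots were tested with 100000 permutations (numpy 2.4.6, scipy 1.17.1), 2-sided. The fit was tested on simulated data. No spot was saturated, and no pair of arrays was identical.

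Names not found as a gene name were matched to the RefSeq gene table by synonym, gene number or accession. Positions are counted on the transcripts that the scanner files name, and no genome coordinates were used. Probe sequences were read from the scanner files. Every member was named with its values, the 3 nearest genes were taken for each by r, and of the pathway and marker lists the called genes, with others where a member's pathway partner or the lowest P-value is given. Some genes that this rule names are not reported here. The members and lists were chosen with earlier results of these data known.

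The alternatives were an analysis of variance without shrinkage, background-corrected signals centred on the median or on the 75th percentile, limma's normexp correction with an offset of 50 and quantile normalization, all non-control spots, spots well above background on every array, a block for slide, scan day or replicate number, a robust prior with a trend, the P-value criterion without FC, the column as deposited, and each pig left out. Leaving out each slide, naming GNLY and KLRB1 through the RefSeq table and comparing pairs of spots were added after the data were seen.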

Additional observations from a re-analysis of the deposited data

How the results depend on the processing

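No line or diet effect that was called changed sign. The count of member spots called between lines at the adjusted threshold was 2, and it was 1 with the deposited values of high RFI HF replicate 1, with slide 3 left out and with slide 5 left out, and 0 with slide 6 left out. Over all 37113 spots the same settings called 1027, 265, 628, 735 and 662. At the methods' criterion the count was 3 spots, namely both of GZMH and spot 2 of KLRK1. It was 2, GZMH alone, under analysis of variance without shrinkage, with the deposited values of that pig and with slide 2, 4 or 5 left out. It was 1 with slide 6 left out (KLRK1 spot 2), and 2 to 4 when single pigs were left out. With slide as a block or slide 3 left out it was 3, but spot 1 of GZMB took the place of KLRK1 spot 2, and with slide 1 left out NCR1 did. With GNLY and KLRB1 named it was 4. Over all spots the criterion was met by 2146, by 2075 under analysis of variance, by 1006 with the deposited values of that pig, by 2415 with slide as a block, by 2591 with the replicate number as a block, and by 1708, 2050, 1691, 1772, 1947 and 1737 with slides 1 to 6 left out. The count of member genes at the adjusted threshold was 1, and 0 with slide 6 left out. At the criterion it was 1, and 2 with slide 1 left out or with GNLY and KLRB1 named. Over the planned and added settings the GZMH line effect ranged from -0.89 to -0.43 with adjusted P-values from 0.00513 to 0.261, and it was above 0.05 with slide 6 left out (-0.43, adjusted P-value 0.261). With single pigs left out it was -0.78 to -0.66. KLRB1 passed with slide 1 left out, at -0.59 (adjusted P-value 0.0485). The GZMB difference of spot 1 minus spot 3 between lines ranged from 0.68 to 0.90, and from 0.73 to 0.86 with single pigs left out. All counts of diet and interaction calls were 0 in every setting. The uncalled line effects of GNLY, PRF1 and GZMB and the uncalled diet effects of 4 members changed sign in some settings. The cause of these changes was not tested.

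With the replicate number as a block the GZMH line effect was -0.73 (adjusted P-value 0.014) and the counts at the adjusted threshold stayed at 2 spots and 1 gene. At the criterion the block kept 3 spots, but KLRK1 spot 2 no longer passed (P-value 0.0124) and GZMB spot 1 did (P-value 0.00532). Pigs with the same number in different groups correlated on average at 0.18, with -0.60 at the lowest over 72 pairs, against 0.03 for pigs of the same slide with another number and -0.04 for pigs of other slides. Of the 48 pigs 22 correlated best with their own number, which is a hint of shared structure. The pigs of each number also lay on 1 slide, so that the numbers are in part the slide layout. Over all spots the block called 1496 between lines at the adjusted threshold, against 1027 without it. Since not every pair correlated and the labels give the numbers no meaning, the fit without the block was kept. GZMA, NCR1 and PRF1 had the weakest signal over the local background. Over the planned and added settings the line effect ranged from -0.56 to -0.17 for GZMA and from -0.38 to -0.12 for NCR1. For PRF1 it ranged from -0.17 to 0.09. None of these 3 genes was called in any setting.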
